A study of Zea mays with 4 samples.

Results

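Alpha-expansins and a xyloglucan endotransglycosylase are represented on the Affymetrix maize array by 6 of its 1108 annotated genes, with 8 of its 17621 probe sets other than controls. Each probe set combines several short oligonucleotides that target the same transcript. The members are every probe set whose single annotated gene is named expA with a number, which gave 7 probe sets for 5 alpha-expansin genes, together with 1 probe set for xet1 (LOC542312). The alpha-expansin genes are expa1 (LOC541904), expa2 (LOC542648), expA3 (LOC541905), expA4 (LOC541906, 3 probe sets) and EXPA5 (LOC541907). They were chosen by name and not by their values.

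Expansins are wall proteins that loosen plant cell walls without cutting the polymers, by weakening the contacts between cellulose microfibrils and the polysaccharides that coat them, and walls extend faster when they act at acid pH. Alpha-expansins are the family first found in growing seedlings of cucumber, whereas grasses also carry a large family of beta-expansins. Xyloglucan endotransglycosylases cut a xyloglucan chain and rejoin it to another, so they remodel the wall matrix. Maize xet1 is known as a gene induced in flooded roots, and grass primary walls hold less xyloglucan than those of most other flowering plants.

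Transcript levels came from 4 arrays, 2 of the maize line F98902, which the labels describe as poorly digestible, and 2 of the line Cm484, described as well digestible. No treatment was given, and greenhouse conditions were days of 14 h at 22 °C and nights of 10 h at 20 °C. Sampling fell in the flowering stage, 24 h ahead of ovulation. The labels disagree on the tissue, with stem under growth and root under extraction, so none is stated here. With 1 line of each kind, digestibility cannot be told apart from any other difference between the lines, and nothing says that the 2 samples of a line came from separate plants. The p-values therefore reflect the spread between the samples measured, which can be purely technical. Values are deposited log2 values, and a value of 5 or more is called detected here. Between 54.8% and 55.2% of probe sets were detected on each array. RNA amounts in the labels were 312.4 and 120.7 ng in F98902, against 416.8 and 342.3 ng in Cm484. Control probe sets at the 5′ end of housekeeping transcripts had a median 0.22 (log2) below the mean of the arrays on F98902 replicate 2, while those at the 3′ end lay at 0.00.

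Of the 8 probe sets, those of expa1 and xet1 were detected on all 4 arrays, that of EXPA5 on 1, and the other 5 on none. Both detected genes had higher signal in Cm484, expa1 by 17.3-fold and xet1 by 1.81-fold. EXPA5 also read higher on both Cm484 arrays, at the edge of detection. expa2, expA3 and expA4 gave no detected signal in either line. In bulk samples such as these, fewer cells of a type and less RNA per cell cannot be told apart.

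**Figure D1:**
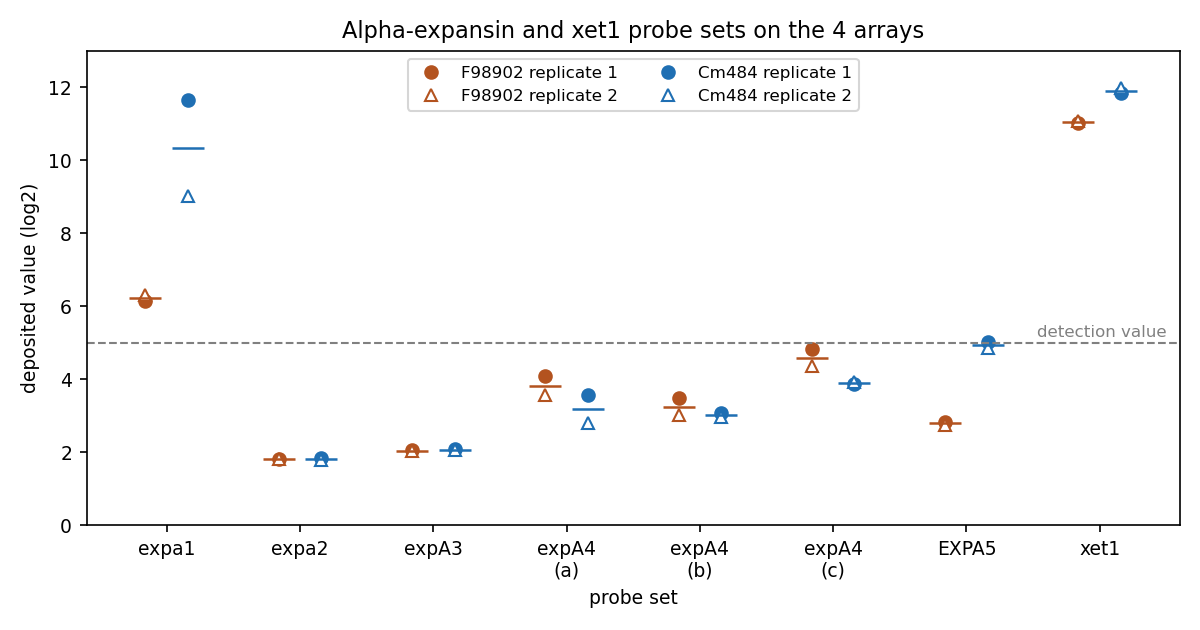
Deposited log2 value (vertical axis) of each alpha-expansin and xet1 probe set (horizontal axis) on the F98902 arrays (orange, left of each pair) and the Cm484 arrays (blue, right), with short lines at the mean of each line and a dashed line at the detection value of 5. Filled circles are replicate 1 and open triangles replicate 2, and (a), (b) and (c) are the 3 probe sets of expA4. expa1, EXPA5 and xet1 lie higher on both Cm484 arrays, and the Cm484 arrays are furthest apart for expa1, by 2.64. Heights of different probe sets are not comparable, since each has its own oligonucleotides.

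expa1 encodes an alpha-expansin. Its probe set read 6.15 and 6.30 on F98902 replicates 1 and 2, against 11.66 and 9.02 on Cm484 replicates 1 and 2. The lines did not overlap, and even the lower Cm484 array lay 2.72 above the higher F98902 array. The mean was 6.22 ± 0.10 in F98902 and 10.34 ± 1.87 in Cm484 (SD, n = 2 each), a difference of -4.11 ± 0.83 (log2, F98902 minus Cm484, SE; 95% confidence interval -6.21 to -2.02; limma adjusted p = 0.0166). A difference of this size or larger in either direction was seen in 259 of the 10131 probe sets kept for testing, or 2.56%. The probe set passed the filter on low values in both lines, so a higher value in F98902 could have been measured as well.

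The size of the expa1 difference rested on the choice of Cm484 array. Cm484 replicate 1 exceeded replicate 2 by 2.64 (log2), and a gap between the Cm484 arrays this wide was found in 14 of the 10131 probe sets, expa1 included, or 0.138%. The median absolute gap over all probe sets kept was 0.19. The difference was -2.79 (6.94-fold) without Cm484 replicate 1 and -5.43 (43.2-fold) without Cm484 replicate 2. With 1 Cm484 array left, the spread came from the F98902 arrays alone, so the gap between the Cm484 arrays no longer counted. The call was lost without F98902 replicate 1 and without F98902 replicate 2, where the spread came from the Cm484 arrays alone. It was also lost with no filter on low values (limma adjusted p = 0.0901). The F98902 arrays differed from each other by 0.15.

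xet1, for the enzyme that rejoins xyloglucan chains, read 11.03 and 11.08 on F98902 replicates 1 and 2, against 11.84 and 11.98 on Cm484 replicates 1 and 2. Signal was high in both lines and the lines did not overlap, with 0.76 between the nearest arrays of each. The mean was 11.05 ± 0.04 in F98902 and 11.91 ± 0.10 in Cm484 (SD, n = 2 each), a difference of -0.85 ± 0.16 (SE; 95% confidence interval -1.25 to -0.46; limma adjusted p = 0.012). Differences at least this large were common, with 2911 probe sets, or 28.7% of those kept. Unlike expa1, xet1 had close replicates, with gaps of 0.05 in F98902 and 0.14 in Cm484, and it read slightly higher on Cm484 replicate 2 than on replicate 1. Its call was lost without Cm484 replicate 2 (difference -0.78, adjusted p = 0.0586).

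EXPA5, another alpha-expansin gene, read 2.84 and 2.75 on F98902 replicates 1 and 2, against 5.02 and 4.85 on Cm484 replicates 1 and 2. The lines did not overlap, and 2.02 lay between their nearest arrays. Only Cm484 replicate 1 reached the detection value, so the probe set missed the filter by 1 array and was not tested in the main comparison. Its means of 2.79 ± 0.06 in F98902 and 4.93 ± 0.12 in Cm484 (SD, n = 2 each) are both under 5, so no fold is given. With no filter, the difference of -2.14 ± 0.09 (SE) had a limma adjusted p of 0.00412, beside 17.6% of 17621 probe sets called in that fit. With a detection value of 4, chosen after seeing these values, its limma adjusted p was 0.000844, beside 3651 of 10812 probe sets called in that fit. It passed that filter through Cm484 alone, so it could be called in that direction alone. These calls rest on a small spread among values that are mostly below detection.

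The 3 probe sets of expA4, also an alpha-expansin gene, share that gene and are not independent. One, (c) in the plot of values by array, read 4.82 and 4.36 on F98902 replicates 1 and 2, against 3.87 and 3.92 on Cm484 replicates 1 and 2. Another, (a), read 4.08 and 3.56 in F98902, against 3.58 and 2.79 in Cm484. The last, (b), whose ID marks oligonucleotides shared by transcripts of 1 gene, read 3.48 and 3.01 in F98902, against 3.08 and 2.96 in Cm484. The F98902 means were higher for each of them, and the arrays of the lines overlapped for all but the first. None was detected on any array, so their order has no weight. With no filter, none was called (limma adjusted p = 0.104, 0.383 and 0.602).

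expa2 read 1.80 and 1.83 on F98902 replicates 1 and 2, against 1.84 and 1.80 on Cm484 replicates 1 and 2. expA3 read 2.05 and 2.04 in F98902, against 2.09 and 2.05 in Cm484. Both genes encode alpha-expansins, and both probe sets lay near the bottom of the scale on all 4 arrays. That shows no signal by these probe sets, not the absence of the transcripts.

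Across the whole table, 34.9% of the probe sets kept were called at an adjusted p under 0.05, 17.7% higher in F98902 and 17.1% higher in Cm484. Of the alpha-expansin and xet1 probe sets, 2 of the 2 kept were called, both higher in Cm484. With 2 probe sets, and more than 1 in 3 called in general, the count itself says little, and the sizes above are the measurement. The median difference of all probe sets kept was -0.02.

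**Figure D2:**
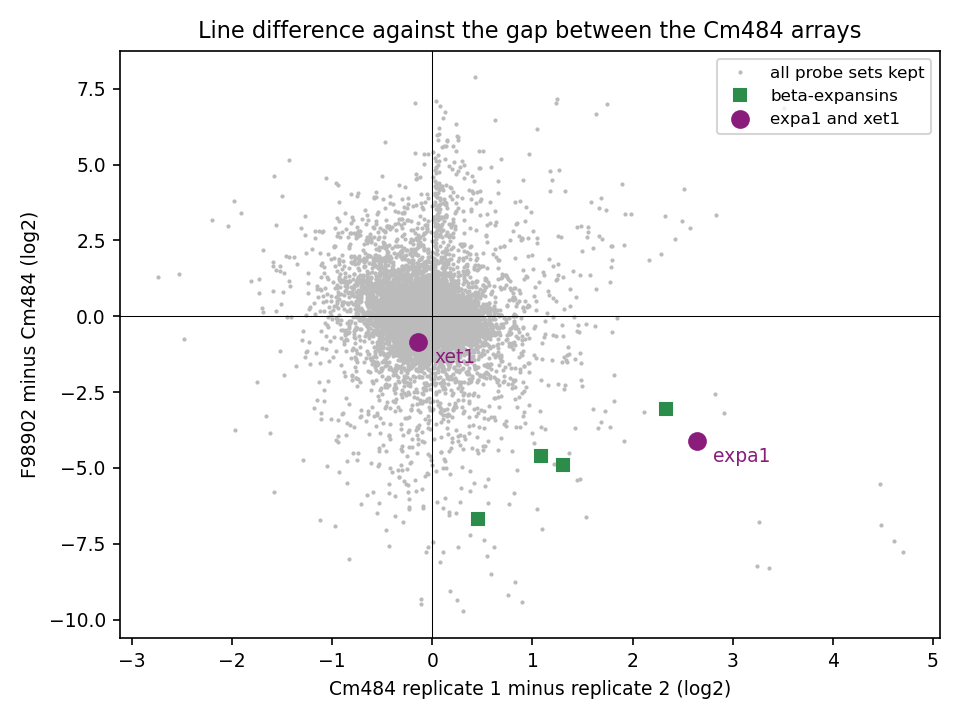
Difference between the lines (F98902 minus Cm484, log2, vertical axis) against the gap between the Cm484 arrays (replicate 1 minus replicate 2, log2, horizontal axis) for all 10131 probe sets kept (grey), beta-expansins (green squares) and expa1 and xet1 (purple). expa1 lies far to the right, with a gap of 2.64, while xet1 lies close to 0 on that axis, at -0.14.

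The genes whose pattern over the 4 arrays was nearest to that of expa1 were sought among 1451 other probe sets with 1 annotated gene, by the root mean square difference of values centred on each probe set's own mean. The nearest was a probe set of PLTP (LOC542231), a phospholipid transfer protein gene, at 0.45 (log2). PLTP read 7.40 and 7.03 in F98902, against 11.73 and 10.07 in Cm484, by this probe set. Another probe set of PLTP differed the other way, with 6.08 and 6.34 in F98902 against 5.24 and 3.45 in Cm484, and was not called (limma adjusted p = 0.0585). Next came glu1 (LOC542414), for a beta-glucosidase that releases the defence compound DIMBOA from its glucoside, at 0.48, with 2.48 and 2.54 in F98902 against 6.91 and 5.49 in Cm484. The third was the beta-expansin gene expB8 (LOC542496), at 0.55. Nearest to xet1 were S6K (LOC542142), for a ribosomal protein kinase, at 0.04, GIF2 (LOC100101545), for a transcriptional coactivator, at 0.04, and the small heat shock protein gene hsp18f (LOC542723), at 0.05. Of these 3, GIF2 alone was detected, with 8.91 and 8.94 in F98902 against 9.77 and 9.79 in Cm484.

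Beta-expansins, the second family of wall-loosening proteins, had 10 probe sets for 7 genes. All 4 that were kept were called higher in Cm484, beside 17.1% of all probe sets kept. Their median difference was -4.74, taken on deposited values that in F98902 were mostly under detection. Signal of expB7 (LOC542649) read 3.24 and 3.37 in F98902, against 10.22 and 9.77 in Cm484 (at least 31.8-fold higher in Cm484, limma adjusted p = 5.6e-05). That of expB6 (LOC542566) read 4.43 and 4.16 in F98902, against 9.44 and 8.35 in Cm484 (at least 14.9-fold, adjusted p = 0.000831). A probe set of expB8 read 3.25 and 2.94 in F98902, against 8.63 and 7.32 in Cm484 (at least 7.88-fold, adjusted p = 0.00114). These folds are bounds against a value of 5, and these 3 passed the filter through Cm484 alone, so they could differ in that direction alone. The other expB8 probe set read 5.05 and 4.81 in F98902, against 9.16 and 6.83 in Cm484 (adjusted p = 0.0286). Its value on F98902 replicate 2 was under 5, so it also needed a Cm484 array to pass the filter. As all 4 were kept with the help of Cm484, their count cannot be weighed against the 17.1%. All 4 read higher on Cm484 replicate 1 than on replicate 2, by 0.45 to 2.33, as expa1 did. expB4 (LOC541909) was detected on Cm484 replicate 1 alone, with 2.66 and 2.64 in F98902, against 6.58 and 3.89 in Cm484, and was not kept. The other 5 probe sets lay between 1.78 and 2.97 on every array.

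The remaining wall-loosening and wall-hydrolysis names on the array, apart from xet1, were the polygalacturonase genes PG14 (LOC542387) and PG2C (LOC732772), the pectin methylesterase gene pme1 (LOC542462) and xyl1 (LOC541702). Their 5 probe sets read at most 2.59 on any of the 4 arrays, so none was detected or tested.

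Cellulose synthesis had 14 probe sets kept, of which 2 were called higher in Cm484, 0 higher in F98902 and 12 not called, with a median of -0.40. The share called higher in Cm484 was near the 17.1% over all probe sets kept, so that count says little. CesA-3 (LOC542489), a cellulose synthase gene, read 8.82 and 8.76 in F98902, against 9.54 and 9.82 in Cm484, and its difference of -0.89 ± 0.17 (SE, limma adjusted p = 0.0151) was close in size to that of xet1. CesA-5 (LOC541803) read 9.89 and 9.81 in F98902, against 10.33 and 10.74 in Cm484 (adjusted p = 0.0468). Both read higher on Cm484 replicate 2 than on replicate 1, as xet1 did. Of the 14 kept, however, 10 read higher on Cm484 replicate 1 and 4 on replicate 2.

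Among structural wall protein names, 4 of 7 probe sets kept were higher in F98902 by the test, and 0 in Cm484, with a median of 0.53. The shares over all probe sets kept were 17.7% higher in F98902 and 17.1% higher in Cm484. HRGP (LOC542371), a hydroxyproline-rich glycoprotein gene, was at least 1.92-fold higher in F98902 (limma adjusted p = 0.000986). Its probe set passed the filter through F98902 alone, so it could be called in that direction alone. The glycine-rich protein gene GRP (LOC542562) was 1.44-fold higher (adjusted p = 0.0489). The other called members, AGP2 (LOC542737, 4.60-fold) and Agp2 (LOC542072, 2.04-fold), carry a symbol that is also used for subunits of ADP-glucose pyrophosphorylase, a starch enzyme.

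**Figure D3:**
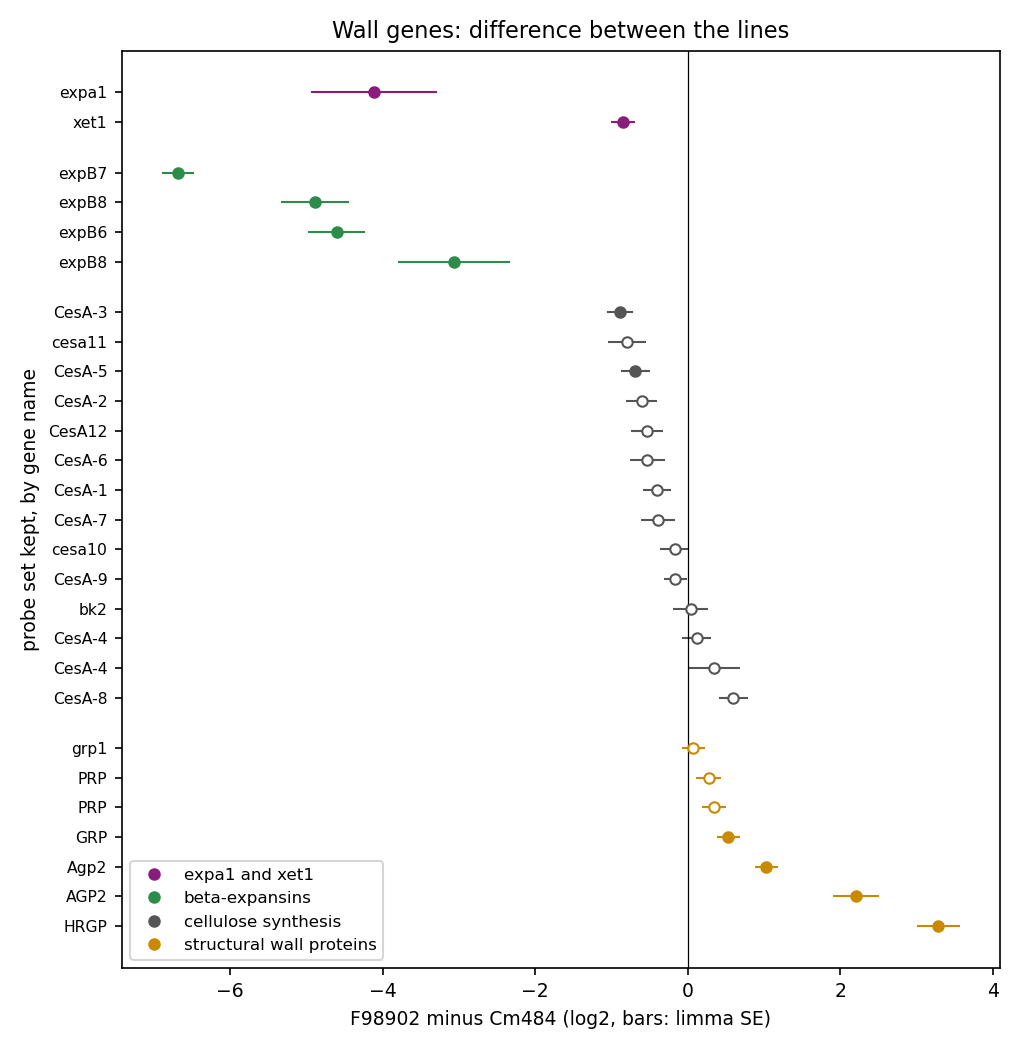
Difference between the lines (F98902 minus Cm484, log2, horizontal axis, bars are the limma SE) for each probe set kept of expa1 and xet1, beta-expansins, cellulose synthesis and structural wall proteins (vertical axis, by gene name). Filled points had an adjusted p under 0.05, and values below detection are plotted as deposited. The expansins lie furthest to the left, xet1 lies among the cellulose synthases, and the structural proteins lie right of 0.

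Markers of tissues and cell states are given beside these results, and their part in the expa1 and xet1 differences was not tested. Green tissue names were called higher in F98902 for 10 of 15 probe sets kept and higher in Cm484 for 1. Over all probe sets kept, the shares were 17.7% and 17.1%. PPDK (LOC542759) and lhcb6 (LOC542321) each gave more than 1 of the 10 calls, so the calls cover fewer genes than probe sets. A further PPDK probe set, detected on all 4 arrays, was not called (difference 0.01, limma adjusted p = 0.978). The summed linear level of the list was 45829 to 48783 on the F98902 arrays, against 21874 to 27008 on the Cm484 arrays. Of the root names, zrp4 (LOC542706) read 2.34 and 2.07 in F98902, against 8.83 and 8.59 in Cm484, and it was the 1 call among 2 probe sets kept, while the other 3 were undetected on every array. It passed the filter through Cm484 alone, so it could be called in that direction alone. The summed linear level of the root list was 778 to 1219 in F98902 and 1160 to 1338 in Cm484, and most of it came from MRP4 (LOC100125659), a transporter gene caught by its symbol, which read 10.21 and 9.56 in F98902, against 9.76 and 9.57 in Cm484, and was not called.

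Dividing-cell names gave 2 calls higher in F98902 and 1 higher in Cm484 of 10 kept, a share near the 34.9% called in general. The 2 calls higher in F98902, of his1 (LOC542385) and cenH3 (LOC542500), passed the filter through F98902 alone and could fall in that direction alone. Another his1 probe set, detected on all 4 arrays, had a lower mean in F98902 (difference -0.50) and was not called. The list had summed linear levels of 5622 to 5882 in F98902 and 3538 to 5078 in Cm484. Its highest member on every array was his1a (LOC541964), with 11.81 and 11.93 in F98902 against 11.50 and 10.70 in Cm484, which was not called. Between the Cm484 arrays, 9 of the 10 dividing-cell probe sets kept read higher on replicate 1, with a small median gap of 0.16 (log2) over the 10. The called probe sets of his1 and cenH3 are among the 9, though both were under detection on both Cm484 arrays. Of the 15 green tissue probe sets, 14 read higher on replicate 2. Some genes count more than once in each list. Over all probe sets kept, the median gap was -0.06 (replicate 1 minus replicate 2), so most read higher on replicate 2. Secondary wall and vascular names include cellulose synthases of the secondary wall and the brittle stalk gene bk2 (LOC778435). They gave 1 call of 10, of ZMK2 (LOC542002), higher in F98902. The differences of cesa10 (-0.17), cesa11 (-0.79), CesA12 (-0.54) and bk2 (0.04) were not called. Summed levels of the list were 20060 to 21144 in F98902 and 22129 to 27314 in Cm484, with sus1 (LOC542247) the highest member on every array. Pollen and silk names gave 1 call of 4 kept, of zmm24 (LOC542038), higher in Cm484, which likewise passed the filter through Cm484 alone. Their summed levels were 16923 to 17335 in F98902 and 18230 to 20151 in Cm484. Most of that came from PRO4 (LOC541662), PRO5 (LOC542625) and zmm19 (LOC542033), none of them called. Of the 17, 12 were undetected on every array, PRO1, PRO2 and PRO3 among them.

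**Figure D4:**
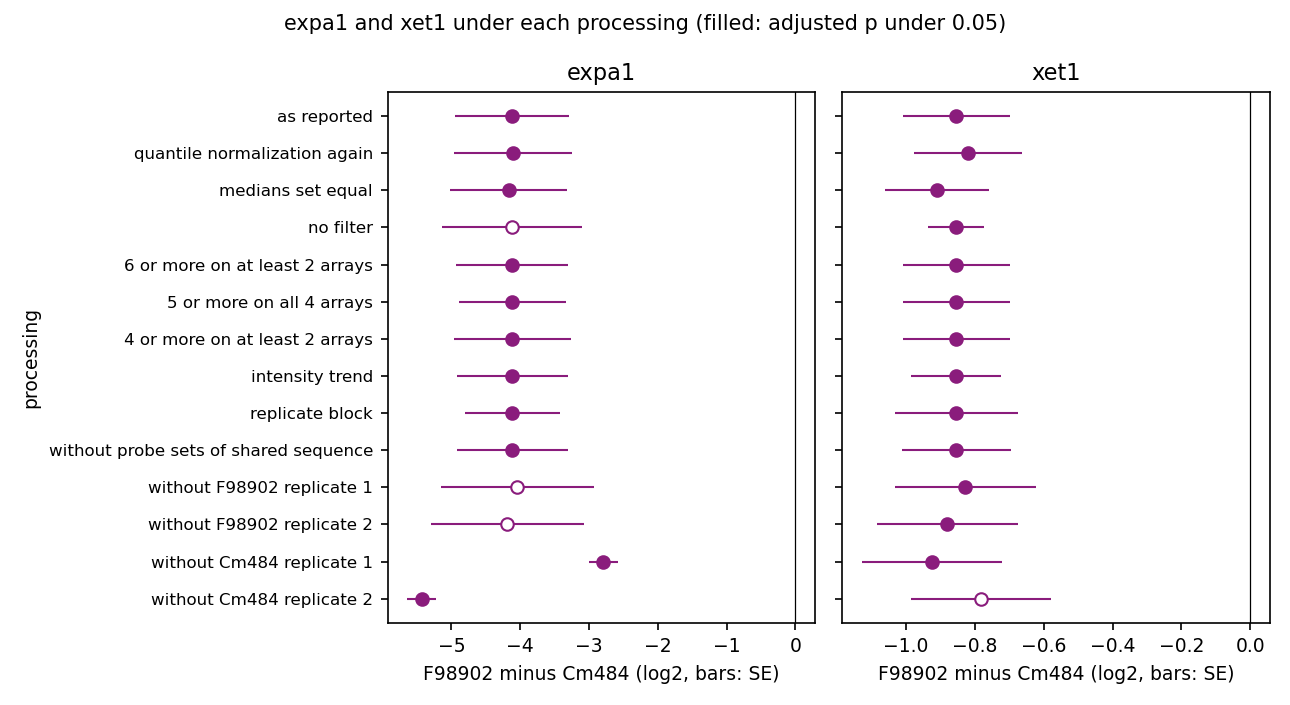
Difference between the lines for expa1 (left panel) and xet1 (right panel), F98902 minus Cm484 on the log2 scale with the limma SE, as reported and under each other processing (vertical axis). Filled points had an adjusted p under 0.05. All points lie below 0, expa1 moves to -2.79 or -5.43 when a Cm484 array is left out, and xet1 stays between -0.92 and -0.78. The panels have different horizontal scales.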

How the data were processed

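Per the submitters' processing notes, GCRMA in R 2.6.2 made the values (GCRMA corrects background by probe sequence, normalizes by quantiles and summarises each probe set); no other step was stated. The log2 values that the authors deposited for the 4 arrays were used as they stand, with medians of 5.87 to 5.98. Of 17734 probe sets, 113 controls were left out. Names were taken from the annotation of the platform and updated by gene identifier to the RefSeq table (assembly Zm-B73-REFERENCE-NAM-5.0), which held 5 of the 6 genes (not expA4); 1452 probe sets had 1 gene, 1 had several and 16281 had none listed. No genome was used, and no coordinates are given.

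Probe sets at 5 or more on at least 2 arrays (10131) were fitted in R 4.3.3 by limma 3.58.1, with moderated variances (lmFit, then eBayes, line as the single term, two-sided; degrees of freedom were 2 residual and 3.26 prior), and p-values were adjusted over all of them by Benjamini-Hochberg. "Called" means an adjusted p under 0.05. Differences are F98902 minus Cm484. The fit was tested on simulated data. A fold against a line with both arrays under 5 is a lower bound against 5. Summed linear levels add the antilog values of a list's probe sets. The members, gene lists and markers were chosen with earlier results of these data known, as patterns of gene names that can catch other genes. Named genes were all members, up to 4 called probe sets of each wall list by smallest p, and the 3 nearest patterns to each member kept. Other names were chosen after their values were seen. Alternatives changed the normalization, the filter, the variance model, the replicate block, the probe sets of shared sequence or 1 array. The number of arrays limits the precision.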

Additional observations from a re-analysis of the deposited data

How the results depend on the processing

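Of 13 alternatives, 10 left expa1 and 12 left xet1 on the same side of the threshold, and every alternative kept both higher in Cm484. Leaving out 1 array at a time gave differences of -5.43 to -2.79 for expa1, -0.92 to -0.78 for xet1 and -2.23 to -2.06 for EXPA5. The number of alpha-expansin and xet1 calls ranged from 1 to 2: expa1 was lost without either F98902 array and xet1 without Cm484 replicate 2. A line with 1 array left was assumed to vary like the other line, so leaving out a Cm484 array also removed the gap between the Cm484 arrays. With no filter, expa1 (-4.11, adjusted p = 0.0901) was not called, while EXPA5 and xet1 were, so the count stayed at 2 with EXPA5 in place of expa1. With a detection value of 4, chosen after seeing the data, 3 were called, EXPA5 among them through Cm484 alone. Over all probe sets, 3533 calls became 2205 without Cm484 replicate 1, 2339 without F98902 replicate 2 and 2706 at most with another array left out, and 3093 with no filter. With replicate number as a block, 2983 probe sets were called, with adjusted p of 0.0168 for expa1 and 0.0295 for xet1. Same-numbered arrays did not deviate together (correlation -0.02 over probe sets), so the numbers were not taken as pairs.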

Other observations

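Among 890 probe sets kept with 1 annotated gene, the gap between the Cm484 arrays was widest for 3 probe sets of IIG1 (LOC542597, also named piip1), followed by expa1. IIG1 read 2.04 and 1.92 on F98902 replicates 1 and 2, against 12.09 and 7.39 on Cm484 replicates 1 and 2, by its widest probe set. The 10 widest gaps, for 7 genes, were all higher on Cm484 replicate 1. Of those 10, 7 had a higher mean in Cm484 and 3 in F98902. The others were expB8, aba1 (LOC542304, also named asr1), plt2 (LOC542343), gst30 (LOC541841) and 2 probe sets of PLTP. aba1, gst30 and 1 of the 2 PLTP probe sets (not called) had a higher mean in F98902, so a wide gap between the Cm484 arrays was not tied to 1 direction of line difference. Over all 10131 probe sets kept, 151 were higher by over 1 (log2) on Cm484 replicate 1 and 121 on Cm484 replicate 2.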
